A study of Homo sapiens with 2 samples.

Results

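The genes described here are 10 members of the amino acid response: the transcription factors ATF4 and DDIT3, the ATF4 targets TRIB3, CHAC1 and SESN2, asparagine synthetase (ASNS), and the serine and glycine synthesis enzymes PHGDH, PSAT1, PSPH and SHMT2. They were taken as a fixed list, chosen with earlier results of these data known, so its counts describe it and no more. All 10 were found among the 18377 genes of the array table. Total RNA was measured on 1 array of EBC1-R cells and 1 array of EBC1 cells. EBC1 is an established human lung squamous carcinoma line whose growth depends on an amplified MET receptor kinase gene. EBC1-R cells are the survivors of culture in stepwise higher doses of PHA-665752, a small-molecule inhibitor of the MET kinase, and were then kept in 3 µM of it; whether they are 1 clone is not given. No inhibitor is named for the EBC1 cells. Both lines had medium with fetal bovine serum, either RPMI 1640 or minimum essential medium Eagle, and which line had which is not given. As background, RPMI 1640 contains serine, glycine and asparagine, and basal minimum essential medium Eagle contains none of them. Resistance, the presence of inhibitor and a possible difference in medium cannot be told apart in this design.

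In the amino acid response, a lack of amino acids activates the kinase GCN2, and stress in the endoplasmic reticulum activates the kinase PERK. Both phosphorylate the initiation factor eIF2, which slows most translation but raises translation of the ATF4 mRNA. ATF4 protein then binds composite C/EBP-ATF elements at genes that make, import or charge amino acids. Serine synthesis leaves glycolysis at 3-phosphoglycerate and runs through PHGDH, PSAT1 and PSPH, and SHMT2 splits serine into glycine and a one-carbon unit in mitochondria. The arrays measured mRNA, so the step of translation that sets ATF4 protein was not measured.

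A match to the core of the C/EBP-ATF element, TGATGNAA on either strand, was present in the promoter windows of 2 of the 8 members that had one, ASNS and CHAC1. The windows run from 250 bases before to 50 bases after a RefSeq start (GRCh38.p14), and both are shown because they hold the element through which ATF4 is known to act. In ASNS (chr7:97872359-97872658, minus strand) the core, in capitals, began 68 bases before the start and lay on the strand of the gene. In CHAC1 (chr15:40953221-40953520, plus strand) it began 209 bases before the start and read in the opposite direction.
ASNS: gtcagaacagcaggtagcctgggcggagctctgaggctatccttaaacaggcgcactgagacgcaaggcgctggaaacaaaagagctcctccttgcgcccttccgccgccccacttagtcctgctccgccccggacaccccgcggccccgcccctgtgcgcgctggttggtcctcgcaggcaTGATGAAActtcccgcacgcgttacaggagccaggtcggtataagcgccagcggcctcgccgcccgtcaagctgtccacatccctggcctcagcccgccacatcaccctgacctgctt
CHAC1: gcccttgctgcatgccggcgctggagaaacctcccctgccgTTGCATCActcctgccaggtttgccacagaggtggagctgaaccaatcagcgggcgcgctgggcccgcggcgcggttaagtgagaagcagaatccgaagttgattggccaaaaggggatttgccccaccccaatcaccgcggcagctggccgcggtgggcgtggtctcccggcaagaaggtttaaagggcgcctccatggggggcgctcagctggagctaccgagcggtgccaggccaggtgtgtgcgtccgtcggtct
The windows of ATF4, DDIT3, TRIB3, SESN2, PHGDH and PSAT1, and a second ASNS start, held no match. Of all 35116 RefSeq windows, 3.62% held the core, and of all genes with a window, 4.46% did. PSPH and SHMT2 were not matched to a window.

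Of the 10 genes, 9 were lower in EBC1-R, against 55.5% of all genes in the table, and 1 was higher, against 43.3%. PSPH, counted as lower, differed by only -0.02. SESN2 was the 1 gene at least 2-fold lower (0.887% of all genes were), and none was at least 2-fold higher (1.26% of all genes were). At least 1.5-fold lower were 4 of the 10, SESN2, PSAT1, ASNS and CHAC1, against 3.16% of all genes, and none was at least 1.5-fold higher, against 4.41%. The median difference, EBC1-R minus EBC1, was -0.45 log2 units over the 10 genes and -0.03 over all genes. All 10 passed a filter on low values, a mean of both arrays of at least 7.28, the median over all genes. Among the 9189 genes above that filter, 5.23% were at least 1.5-fold lower and 50.6% were lower by any amount. The shares over all genes given here are also those to set beside the counts of the other lists below. With 1 array per group there is no replicate error and no test. Values are log2 intensities as deposited, and only differences, not levels, are set against each other between genes.

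**Figure D1:**
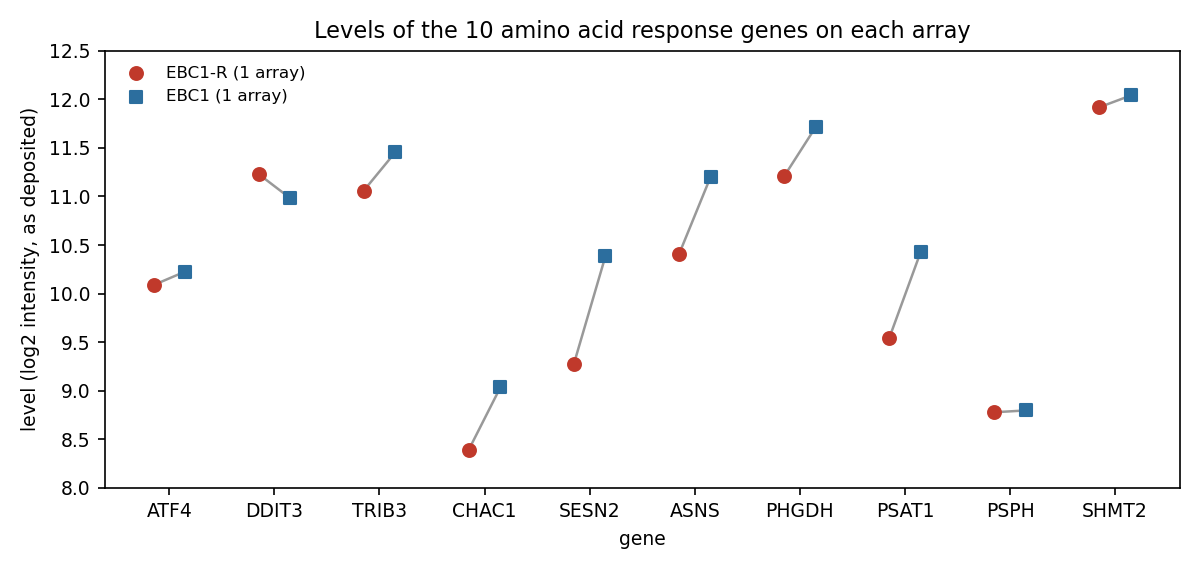
Level (log2 intensity) of each of the 10 genes on the EBC1-R array (circles, left of each pair) and the EBC1 array (squares), with a line joining the pair. The EBC1-R point lies below the EBC1 point in 9 of the 10 genes and above it in DDIT3, and the longest line is that of SESN2 (9.28 in EBC1-R and 10.38 in EBC1).

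The 2 transcription factors differed little and in opposite directions. ATF4 stood at 10.09 in EBC1-R and 10.23 in EBC1, a difference of -0.14, and 30.2% of all genes had a difference as low or lower. DDIT3, which encodes CHOP, a factor induced by ATF4 that favours cell death in prolonged stress, stood at 11.23 in EBC1-R and 10.98 in EBC1. Its difference of 0.25, or 1.19-fold higher, made it the 1 member above 0, and 84.0% of all genes had a difference as low or lower. DDIT3 minus ATF4, as a difference of these differences, was 0.39.

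The stress targets were lower by unequal amounts. SESN2 (sestrin 2), which binds leucine and restrains mTORC1 when leucine is scarce, stood at 9.28 in EBC1-R and 10.38 in EBC1. It was 2.16-fold lower, and 0.648% of all genes had a difference as low or lower. CHAC1, an enzyme that degrades glutathione, stood at 8.39 in EBC1-R and 9.03 in EBC1, 1.56-fold lower. TRIB3, a pseudokinase that binds ATF4 and CHOP and dampens their activity, stood at 11.06 in EBC1-R and 11.45 in EBC1. That was 1.31-fold lower, a difference of -0.39. As background, CHOP acts on TRIB3 and CHAC1 as well as ATF4 does. The difference of TRIB3 minus that of DDIT3 was -0.64. CHOP protein was not measured, and its part in the differences of TRIB3 and CHAC1 was not tested.

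Of the biosynthetic enzymes, ASNS, PHGDH and PSAT1 were lower in EBC1-R by unequal amounts, and SHMT2 and PSPH differed little. ASNS, which makes asparagine from aspartate and glutamine, stood at 10.40 in EBC1-R and 11.20 in EBC1, 1.73-fold lower. PHGDH, which catalyses the entry into serine synthesis, stood at 11.21 in EBC1-R and 11.71 in EBC1, 1.42-fold lower, and its difference of -0.51 became -0.30 when a probe set shared with MZT2B was averaged in. PSAT1, the aminotransferase of the next step, stood at 9.54 in EBC1-R and 10.43 in EBC1. It was 1.85-fold lower, the largest difference among the 4 serine and glycine enzymes. PSPH, the phosphatase that releases serine, stood at 8.78 in EBC1-R and 8.80 in EBC1, a difference of -0.02, and its probe sets differed in sign. SHMT2 stood at 11.92 in EBC1-R and 12.04 in EBC1, a difference of -0.12. No test of a difference between steps was possible. The difference of PSAT1 minus that of PSPH was -0.87.

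In order of the difference, the genes ran SESN2, PSAT1, ASNS, CHAC1, PHGDH, TRIB3, ATF4, SHMT2, PSPH and DDIT3. Differences of several probe sets of 1 gene scattered with a pooled SD of 0.16 log2 units (376 genes above the filter), which describes agreement within this pair of arrays and not between cultures. Of the 9 gaps between neighbours in that order, 6 were smaller than this SD. The 3 larger gaps lay between SESN2 and PSAT1 (0.22), between TRIB3 and ATF4 (0.26) and between PSPH and DDIT3 (0.27). The SD is that of a single probe set about the mean of its gene, whereas a gap holds the scatter of both genes. A gap above the SD, such as that between SESN2 and PSAT1, is therefore not resolved by it. The genes from PSAT1 to TRIB3, and those from ATF4 to PSPH, form 2 stretches in which adjacent members cannot be ordered by that measure.

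**Figure D2:**
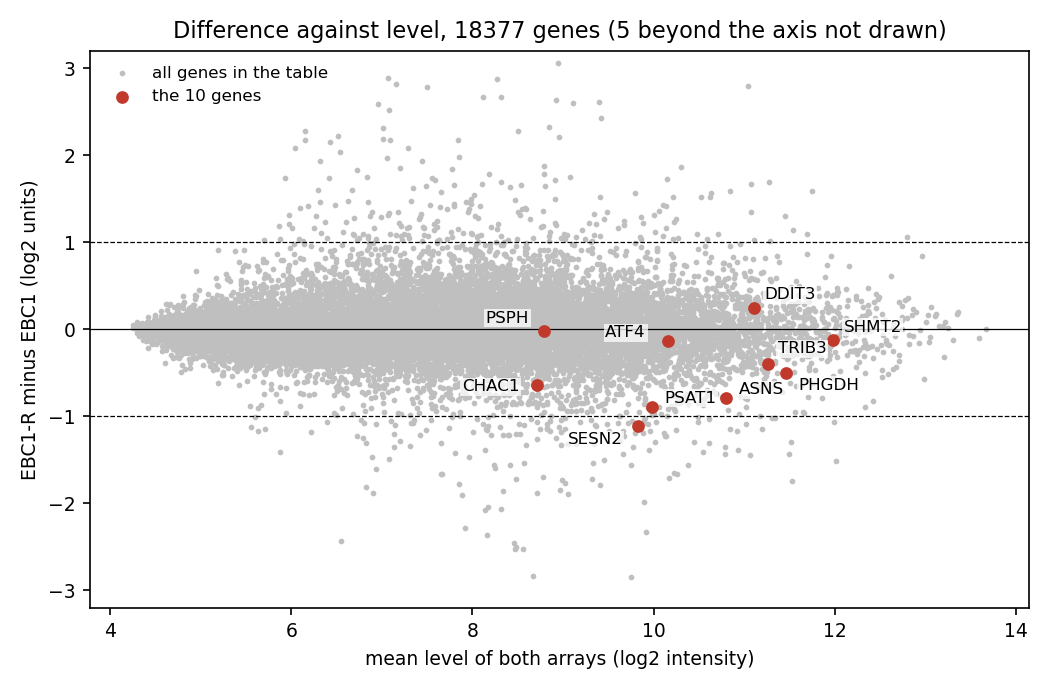
Difference EBC1-R minus EBC1 (log2 units) against the mean level of both arrays (log2 intensity) for all 18377 genes (grey) and the 10 genes (red, named), with dashed lines at 2-fold and 5 genes beyond the axis not drawn. SESN2 lies under the lower line at -1.11, PSAT1, ASNS and CHAC1 lie between it and 0, and DDIT3 alone of the 10 lies above 0.

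Probe sets limited some of these values. PSPH had 2 probe sets, at 8.83 and 8.73 in EBC1-R and at 8.90 and 8.69 in EBC1, so that they differed in sign (-0.07 and 0.03). The other 9 members had 1 probe set each. A further probe set, annotated to both MZT2B and PHGDH and not used, stood at 10.31 in EBC1-R and 10.40 in EBC1, a difference of -0.10. RefSeq names pseudogenes of ATF4 (4), ASNS (5), PSAT1 (4) and PSPH (1), and the loci of DDIT3 and MARS1, of SHMT2 and COXFA4L2, and of ASNS and the readthrough locus CZ1P-ASNS overlap. Whether their transcripts hybridise to these probe sets was not tested.

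The paralogs of the members were mostly lower too, 7 of 8 measured, with a median of -0.46. Only 3 of the 8, TRIB1, SHMT1 and ASNSD1, passed the filter on low values, and 1 of these, ASNSD1, was higher. TRIB1, which like TRIB3 is a pseudokinase, stood at 10.10 in EBC1-R and 10.95 in EBC1, 1.80-fold lower. CHAC2 stood at 6.49 in EBC1-R and 7.27 in EBC1, 1.73-fold lower. SHMT1, the cytosolic form of SHMT2, stood at 7.97 in EBC1-R and 8.47 in EBC1, a difference of -0.50. The difference was -0.48 for TRIB2, -0.44 for ATF5, a bZIP factor close to ATF4, and -0.39 for SESN3. SESN1 differed by -0.04. ASNSD1, which shares a domain with ASNS, was the 1 paralog higher in EBC1-R, by 0.21.

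Upstream of ATF4, the kinases, eIF2 and eIF2B subunits and phosphatase genes had no common direction. Of 20 measured, 10 were lower and 10 higher, with a median of 0.00. EIF2AK3, which encodes PERK, stood at 8.62 in EBC1-R and 7.65 in EBC1, 1.96-fold higher. PPP1R15A (GADD34), which directs a phosphatase to eIF2 and is itself an ATF4 target, stood at 10.82 in EBC1-R and 11.48 in EBC1, 1.58-fold lower. EIF2B2, a subunit of the exchange factor of eIF2, differed by -0.41, and OMA1, a mitochondrial protease, by 0.38. Of 16 bZIP factors, 9 were lower and 7 higher, also with a median of 0.00. CEBPD was 1.92-fold higher, at 10.33 in EBC1-R and 9.39 in EBC1. JUN was 1.60-fold lower, at 9.51 in EBC1-R and 10.19 in EBC1.

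A separate list of other known ATF4 targets, which holds none of the 10 genes, lay evenly on both sides of 0. Of 37 measured, 18 were lower and 19 higher, with a median of 0.02. NUPR1, a small stress-induced chromatin protein, was the 1 gene of that list at least 2-fold apart, at 8.54 in EBC1-R and 7.43 in EBC1, 2.16-fold higher. GDF15, a secreted stress cytokine, stood at 12.29 in EBC1-R and 11.55 in EBC1, 1.67-fold higher. PCK2, the mitochondrial form of PEP carboxykinase, stood at 8.36 in EBC1-R and 9.10 in EBC1, 1.67-fold lower. Amino acid transporters were lower in 11 of 14, against 55.5% of all genes, with a median of -0.24. Their list shares SLC7A5, SLC1A5 and other genes with the list of other ATF4 targets, so the counts overlap. Among them SLC43A1 was 1.64-fold lower and SLC7A5, the large neutral amino acid transporter, 1.38-fold lower, at 11.48 in EBC1-R and 11.94 in EBC1. The glutamine transporter SLC1A5 differed by -0.37 and SLC25A1, a mitochondrial citrate carrier that the list also holds, by -0.39.

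Cytosolic aminoacyl-tRNA synthetases, many of them ATF4 targets, were lower in 10 of 19, with a median of -0.04 and a range from -0.34 to 0.43. CARS1 (-0.34) and MARS1 (-0.34) were the lowest of them, and LARS1 (0.43) and FARSA (0.36) the highest. Their mitochondrial counterparts were lower in 4 of 16, with a median of 0.25, and FARS2 was highest at 0.57. No synthetase of either kind differed 1.5-fold.

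Metabolic neighbours of the serine and asparagine enzymes mostly differed by small amounts. Of 14 folate one-carbon enzymes, 9 were lower, with a median of -0.08. TYMS (thymidylate synthase) was 1.53-fold lower, at 9.10 in EBC1-R and 9.72 in EBC1, and SLC25A32, the mitochondrial folate carrier, differed by -0.34, whereas MTFMT differed by 0.55. MTHFD2, the next enzyme after SHMT2 in the mitochondrial folate path and named after its value was seen, stood at 10.59 in EBC1-R and 10.87 in EBC1. Genes that use serine or glycine were lower in 8 of 16, with a median of 0.01 and none 1.5-fold apart. SPTLC1, of sphingolipid synthesis, differed by 0.37 and SRR, the serine racemase, by -0.34.

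Glycolytic enzymes around the branch point were higher in 6 of 8, against 43.3% of all genes, with a median of 0.24. BPGM, which takes an intermediate just above 3-phosphoglycerate, was 2.09-fold higher, at 8.30 in EBC1-R and 7.24 in EBC1. ENO2 was 1.57-fold higher and PKM, pyruvate kinase, 1.41-fold lower. Asparagine, aspartate and glutamate enzymes were higher in 7 of 11, with a median of 0.12. ASS1, which consumes aspartate to make argininosuccinate, stood at 9.65 in EBC1-R and 8.74 in EBC1, 1.88-fold higher, and ASRGL1, an asparaginase, differed by -0.51. Proline genes were higher in 4 of 6, with a median of 0.04. Of these, PYCR1 (0.53) and ALDH18A1 (0.47) act in synthesis and are ATF4 targets, and PYCR3 (-0.41), of the same synthesis step as PYCR1, was lower. Genes of amino acid sensing upstream of mTORC1, a list that leaves out SESN2 as one of the 10 genes although it acts there, were higher in 18 of 30, with a median of 0.10. None of the 30 differed 1.5-fold, and ITFG2 (0.56) and MIOS (-0.42) had the highest and lowest differences.

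**Figure D3:**
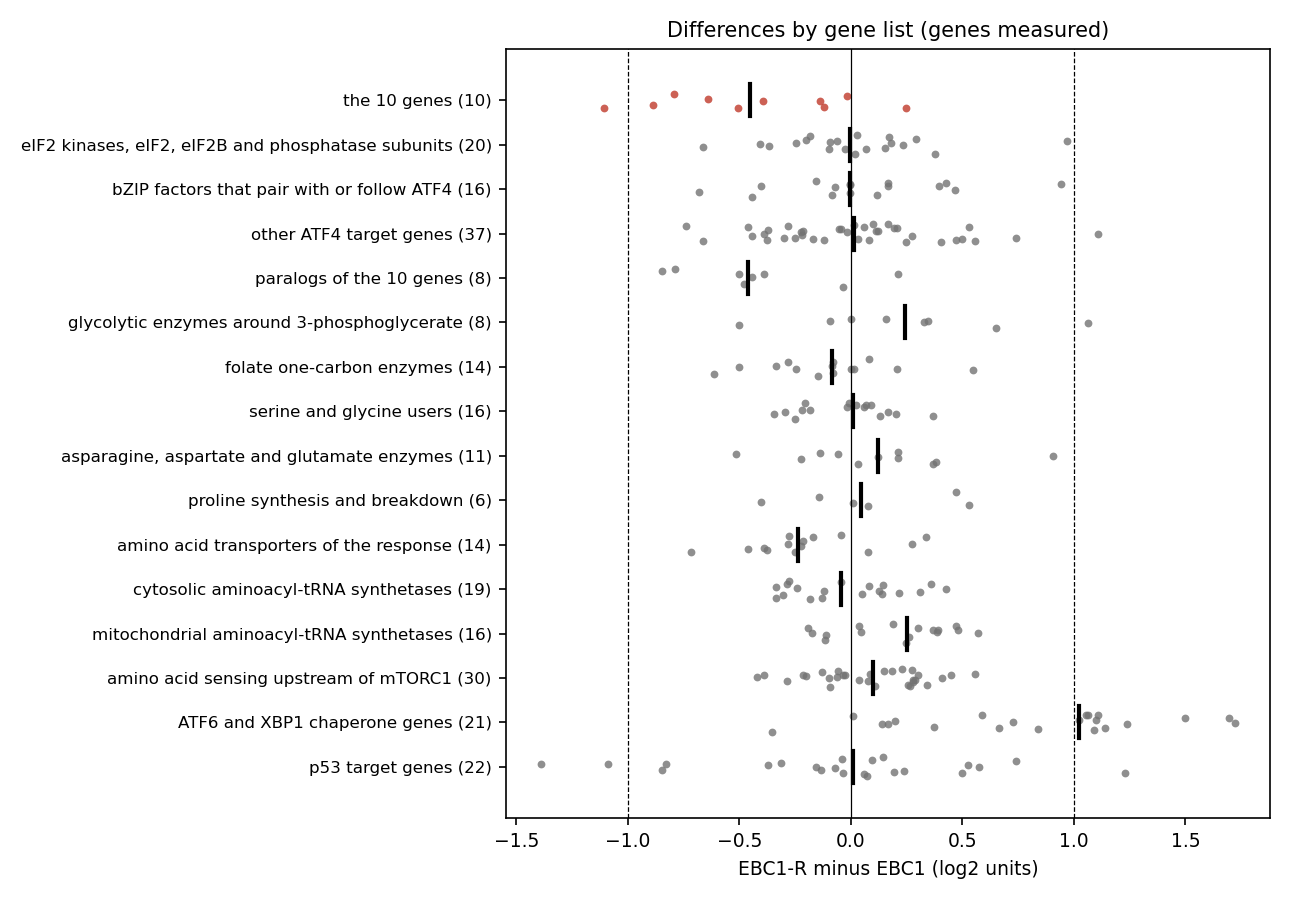
Difference EBC1-R minus EBC1 (log2 units) of each measured gene (points) in the 10 genes and in 15 lists, with the number of genes measured, the median as a black bar and dashed lines at 2-fold. The median is -0.45 in the 10 genes, -0.46 in their paralogs, 1.03 in the ATF6 and XBP1 chaperone genes and between -0.24 and 0.25 in the other lists. Of the 8 paralogs, 3 passed the filter on low values.

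Genes of the ATF6 and IRE1-XBP1 arms of the endoplasmic reticulum stress response were mostly higher in EBC1-R. Of 21 chaperone, degradation and sensor genes controlled by or acting with ATF6 and XBP1, 20 were higher in EBC1-R, against 43.3% of all genes. At least 2-fold higher were 11, against 1.26% of all genes, and the median of the 21 was 1.03. SEL1L, of the degradation machinery, stood at 11.01 in EBC1-R and 9.28 in EBC1, 3.30-fold higher. The chaperone HSPA5 (BiP) stood at 13.32 in EBC1-R and 12.26 in EBC1, 2.09-fold higher. The disulfide isomerase PDIA4 was 3.24-fold higher, as was SDF2L1 by 2.16-fold, the co-chaperone DNAJC3 by 2.36-fold and CRELD2 by 2.83-fold. CALR (calreticulin) was 2.20-fold, PDIA6 2.14-fold, DNAJB11 2.13-fold, MANF 2.08-fold and HYOU1 2.04-fold higher. ERN1, the sensor IRE1, named after its value was seen, was the 1 gene of the list lower in EBC1-R, with a difference of -0.35. XBP1 (0.01) and DNAJB9 (0.14), also named after their values were seen, differed little. The part of each arm in the higher values was not tested. The chaperone list was chosen with its direction on these arrays already known, so its count describes it and no more.

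A second motif, chosen after the values were seen, was searched in the same windows. The ER stress response element, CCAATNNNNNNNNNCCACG on either strand, was present in 7 of the 21 chaperone genes that had a window and in none of the 8 members with one. It was present in 0.0916% of all genes with a window and in 0.0769% of all RefSeq windows. In 4 of the genes at least 2-fold higher the matches, shown because they set the chaperone genes beside the ASNS and CHAC1 windows above, read as follows in the direction of the gene (GRCh38.p14), with the fixed letters in capitals. The windows are chr9:125241294-125241593 (minus strand) for HSPA5, chr2:10812736-10813035 (minus strand) for PDIA6, chr19:12938359-12938658 (plus strand) for CALR and chr22:49918384-49918683 (plus strand) for CRELD2; the last 2 matches lie on the opposite strand to the gene.
HSPA5: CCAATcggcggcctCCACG
PDIA6: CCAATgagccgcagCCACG
CALR: CGTGGtcgaccatcATTGG
CRELD2: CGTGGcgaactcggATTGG
All 7 chaperone genes with this element were higher in EBC1-R. Of the whole list, 20 of 21 measured genes were higher, so this count says little about the element. Of the 7, XBP1 differed least, by 0.01 log2 units, and CRELD2 most, at 2.83-fold. SEL1L and PDIA4, the genes of the list with the largest differences, were not among those with a match. Over the whole table, 19 genes had the element, with a median difference of 0.79, and 10.5% of them were lower. The 19 include the 7 chaperone genes, whose list was chosen with its direction known. The other 12 genes had a median of 0.51, with 2 lower and 10 higher. These 12 were set apart only by absence from that list, and whether they hold other ER stress genes was not tested. As the motif was chosen after the values were seen, their direction describes them and no more.

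For the C/EBP-ATF core the same comparison gave values near those of all genes. The 511 genes with the core had a median difference of -0.04, and 59.3% were lower, while the 13699 genes with a window and no core had a median of -0.03, and 54.4% were lower. ASNS (-0.79) and CHAC1 (-0.64) lay toward the low end of the 511. Of the cytosolic synthetases, 7 of the 16 with a window held the core, and 5 of the 7 were lower, with CARS1 (-0.34) the lowest and AARS1 (0.31), named after its value was seen, the highest. A match is a description of the letters and not evidence of binding.

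**Figure D4:**
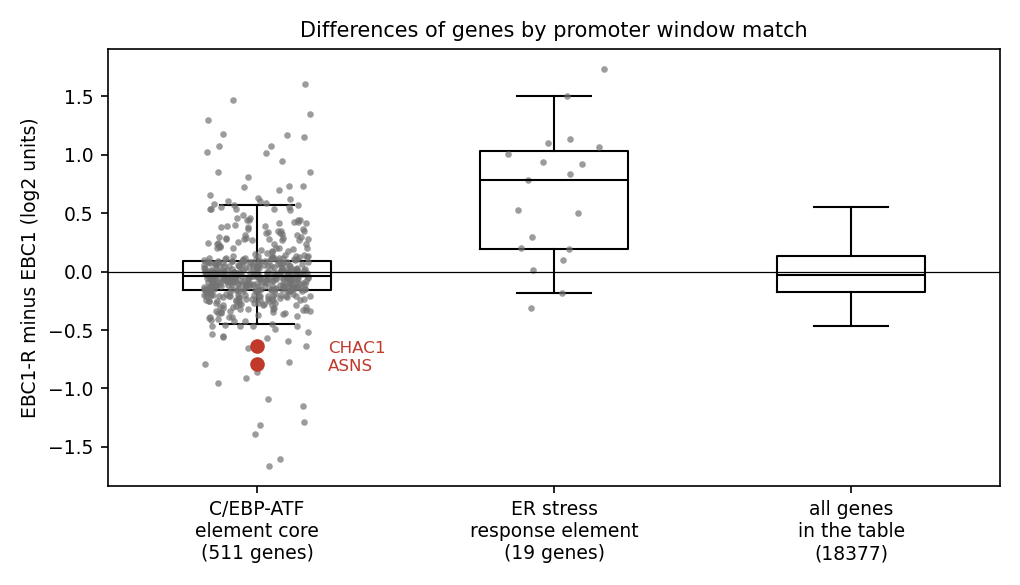
Difference EBC1-R minus EBC1 (log2 units) of the 511 genes with a C/EBP-ATF core in a promoter window, the 19 genes with an ER stress response element and all 18377 genes; boxes give quartiles and the median, whiskers the 5th and 95th percentiles, points single genes. The medians are -0.04, 0.79 and -0.03, and ASNS and CHAC1 (red) lie under 0.

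SESN2 is also a target of p53, so genes induced by p53 were set beside it. Of 22 measured, 11 were lower and 11 higher, with a median of 0.01. PLK3 (2.62-fold lower) and CDKN1A (2.13-fold lower, at 8.94 in EBC1-R and 10.03 in EBC1) were at least 2-fold lower, against 0.887% of all genes. PLK2 was 2.34-fold higher, and 1.26% of all genes were at least 2-fold higher. TP53I3 was 1.80-fold lower.

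Across all genes, 95% of differences lay between -0.65 and 0.75, and the array medians over 28869 probe sets were 6.71 in EBC1-R and 6.73 in EBC1. The epithelial markers CDH1 (12.06 in EBC1-R and 11.96 in EBC1) and EPCAM (11.25 in EBC1-R and 11.33 in EBC1) passed the filter on low values. KRT8, KRT18 and KRT19 passed it too and were lower in EBC1-R, with differences from -0.78 (KRT18) to -0.89 (KRT19). Their part in the differences of the 10 genes was not tested. The squamous markers KRT5, DSG3 and SOX2 did not pass it on these arrays. Summed levels of 7 leukocyte markers (43.3 in EBC1-R and 43.1 in EBC1), 8 fibroblast markers (46.9 in EBC1-R and 47.0 in EBC1) and 8 endothelial markers (47.7 in EBC1-R and 48.0 in EBC1) were close on both arrays, and 1 marker of each list passed the filter. The leukocyte marker that did was CD68, a lysosomal protein, at 11.45 in EBC1-R and 11.04 in EBC1; its part in the differences of the 10 genes was not tested.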

How the data were processed

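Total RNA (100 ng per array, per the labels' protocols) was labelled with an Affymetrix whole-transcript kit and measured on 1 array per cell line. The values were deposited by the authors as a single table of 28869 probe sets and are read as log2 intensities because of their range (4.22 to 14.2 in EBC1-R and 4.21 to 14.1 in EBC1). How the authors made these log2 values before they deposited them (log base, background correction, normalization) was not given in these sources, and the column medians are nearly equal. The array model in the labels' protocols does not match the deposited probe set identifiers. By the platform annotation, 19310 probe sets had exactly 1 symbol, 1752 had more than 1 and 7807 had none; 19279 of the first were found by gene identifier in RefSeq, which changed 0 symbols. Probe sets with 1 symbol were averaged per gene (18377 genes). The difference is EBC1-R minus EBC1, counted at 2-fold and 1.5-fold. No detection call was used. The number of arrays limits the precision.

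The members and the 15 lists (258 of 282 entries measured) were chosen with earlier results of these data known. Named were the members, their paralogs and, per list, the genes 2-fold apart or up to 4 with the largest difference; exceptions are marked. The counting was tested on simulated data with planted differences larger than that of any member, so this says nothing about differences of the members' size. Alternatives were quantile normalization, median centring, removal of a lowess trend (span 0.2), a pseudocount of 16, the brightest probe set, probe sets of several symbols, a level filter and a 3-fold threshold. Python 3.11.15, pandas 2.3.3 and statsmodels 0.14.6 were used. RefSeq promoter windows came from GRCh38.p14; the build of the array design is not given.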

Additional observations from a re-analysis of the deposited data

How the results depend on the processing

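No paired analysis was possible because each group has 1 array. With a threshold of 3-fold in place of 2-fold, 0 of the 10 genes remained called, against 1 at 2-fold. Under the 7 other alternatives the count at least 2-fold apart was 1 and the count at least 1.5-fold apart was 4 each time, and the median difference of the 10 genes lay between -0.45 and -0.35, the latter with probe sets of several symbols included. The number of members lower in EBC1-R was 9 under 6 of those 7 and 8 after median centring, where PSPH differed by 0.002. The level filter removed none of the 10 genes. The brightest probe set changed only PSPH, and probe sets of several symbols changed only PHGDH, both under 1.5-fold before. Unchanged fold counts under these settings therefore say little. Of 70 single differences recomputed, 28 could not move because the setting left the gene's probe sets as they were; of the other 42, 41 moved by less than the probe set SD of 0.16, and the exception was PHGDH, at -0.30 with the probe set it shares with MZT2B against -0.51 without. With no detection calls and 1 array per group, neither background nor variation between cultures is separated from these differences.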

Other observations

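The genes beside the 4 members at least 1.5-fold lower are given here by their differences. In RefSeq gene order, the nearest measured genes on both sides of SESN2, PSAT1, ASNS and CHAC1 were taken, 8 genes chosen after the values were seen. They differed by -0.24 (CEP78, before PSAT1) to 0.33 (TLE4, after PSAT1). Of the 8, 0 were 1.5-fold apart, against 7.57% of all genes and 11.5% of genes above the filter on low values. A count of 0 among 8 lies near those shares. Only 4 of the 8 passed that filter. Among the second neighbours, TLE1 (after PSAT1) was 1.76-fold higher, at 8.92 in EBC1-R and 8.10 in EBC1, and LMTK2 (after ASNS) differed by 0.47. ASNS lies on chromosome 7 between TAC1 (-0.01) and CCZ1P-OR7E38P (0.12). DDIT3 and SHMT2 lie on chromosome 12 with 8 measured genes between them. DDIT3 differed by 0.25, while MARS1, whose locus overlaps it, stood at 10.65 in EBC1-R and 10.99 in EBC1.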
